A study of Homo sapiens with 12 samples.

Results

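The genes described here are 9 components of the first steps of insulin and IGF signalling through phosphoinositide 3-kinase (PI3K), chosen by name: the receptors IGF1R and INSR, the adaptors IRS1 and IRS2, the catalytic subunits PIK3CA and PIK3CB, the regulatory subunits PIK3R1 and PIK3R3, and the lipid phosphatase INPP4B. They are 9 of the 60670 genes in the count table, and were chosen with earlier results of these data known. Total RNA was sequenced from MDA-MB-453, a human breast cancer line known to respond to androgen and to lack estrogen receptor alpha. All cultures had 72 h in DMEM (high glucose, 10% FBS). The 6 vehicle libraries had 0.001% ethanol and the 6 DHT libraries 10 nM dihydrotestosterone, a potent natural androgen, each for 6 h. Replicates were consecutive passages of 1 line, so the spread is that between passages of this line. The labels do not say whether a replicate number marks the same passage in both groups, so comparisons by replicate number below are description only.

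Ligand-bound IGF1R and INSR, which are receptor tyrosine kinases, phosphorylate the IRS adaptors, and phosphotyrosines on an IRS protein bind the regulatory subunit of a class IA PI3K. The catalytic subunit held by that regulatory subunit then makes the lipid PIP3, which recruits the kinase AKT to the membrane. Lipid phosphatases end the signal, and among them INPP4B acts on PI(3,4)P2, a product of PIP3. In breast epithelium the pathway serves growth and survival, and MDA-MB-453 is known to carry an activating mutation of PIK3CA.

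The shallowest library, vehicle replicate 6, held 4346465 counts and the deepest, DHT replicate 2, held 25678781. After scaling, a single count stood for 0.0456 to 0.214 CPM, the count scaled to a common library total. On the first principal component (52.6% of the variance) both replicate 2 libraries stood apart, at 76.8 and 69.1 against -30.1 to 23.5 for the others. Vehicle replicate 5 had the highest mitochondrial share of counts, 8.07% against 3.03% to 5.66% elsewhere. By group that share was 4.88% ± 1.81 in vehicle and 3.42% ± 0.354 with DHT (SD, n = 6 per group), with overlap, and its part in the differences between the groups was not tested. Androgen target genes responded: FKBP5 rose from 82.4 ± 15.2 to 350 ± 63.9 CPM (SD, n = 6 per group), and ZBTB16 and SEC14L2 rose too. Of the line's markers ERBB2 stood at 1263 ± 446 CPM in vehicle, while ESR1 had 40 counts over all libraries. Of 6 fibroblast markers the summed level was 76.4 to 110 CPM in vehicle and 59.9 to 75.9 CPM in DHT libraries, most of it COL1A1, with 3 of 6 tested and 0 passing by edgeR, DESeq2 or limma-voom (3 lower at an unadjusted p under 0.05), and its part in the results below was not tested. Leukocyte markers summed to at most 0.8545 CPM in any library, and endothelial markers, summed apart, to at most 1.55 CPM.

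By the main test (edgeR's quasi-likelihood test, Benjamini-Hochberg adjustment over 16355 genes, threshold 0.05), 0 of the 8 tested members passed, against 2.84% of all genes tested (1.96% raised and 0.880% lowered). IRS2 did not reach the count filter and was not tested. IRS1 and PIK3R3 came nearest: both were lower with DHT, 1.45-fold and 1.51-fold, and they were the 2 members with an unadjusted p under 0.05, against 12% of all genes. In 0 of the 9 members were the libraries of the groups free of overlap, against 3.27% of all genes tested (2.28% higher and 0.991% lower with DHT). DESeq2 called the same 2, where it called 4.85% of all genes, and limma-voom called 0. A fit with the replicate number as a block also called these 2 and 7.86% of all genes. The authors' deposited table also gives these 2 members an adjusted p under 0.05, of 8 members listed and 4.25% of all its genes. The other 6 tested members, both receptors, both catalytic subunits, PIK3R1 and INPP4B, did not pass in any of the 21 alternative fits. In the main fit the median log2 fold change of the 8 was -0.06, beside -0.05 over all genes tested. In simulated libraries with the same totals and spread, this test recovered 11 of 96 genes changed by 1.5-fold (11.5%) and 92 of 99 changed by 3-fold. The simulation changed 200 genes, where the main test called 464 in the data. It drew each count independently, without a shift shared by the genes of a library, so its rates need not hold for the data.

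**Figure D1:**
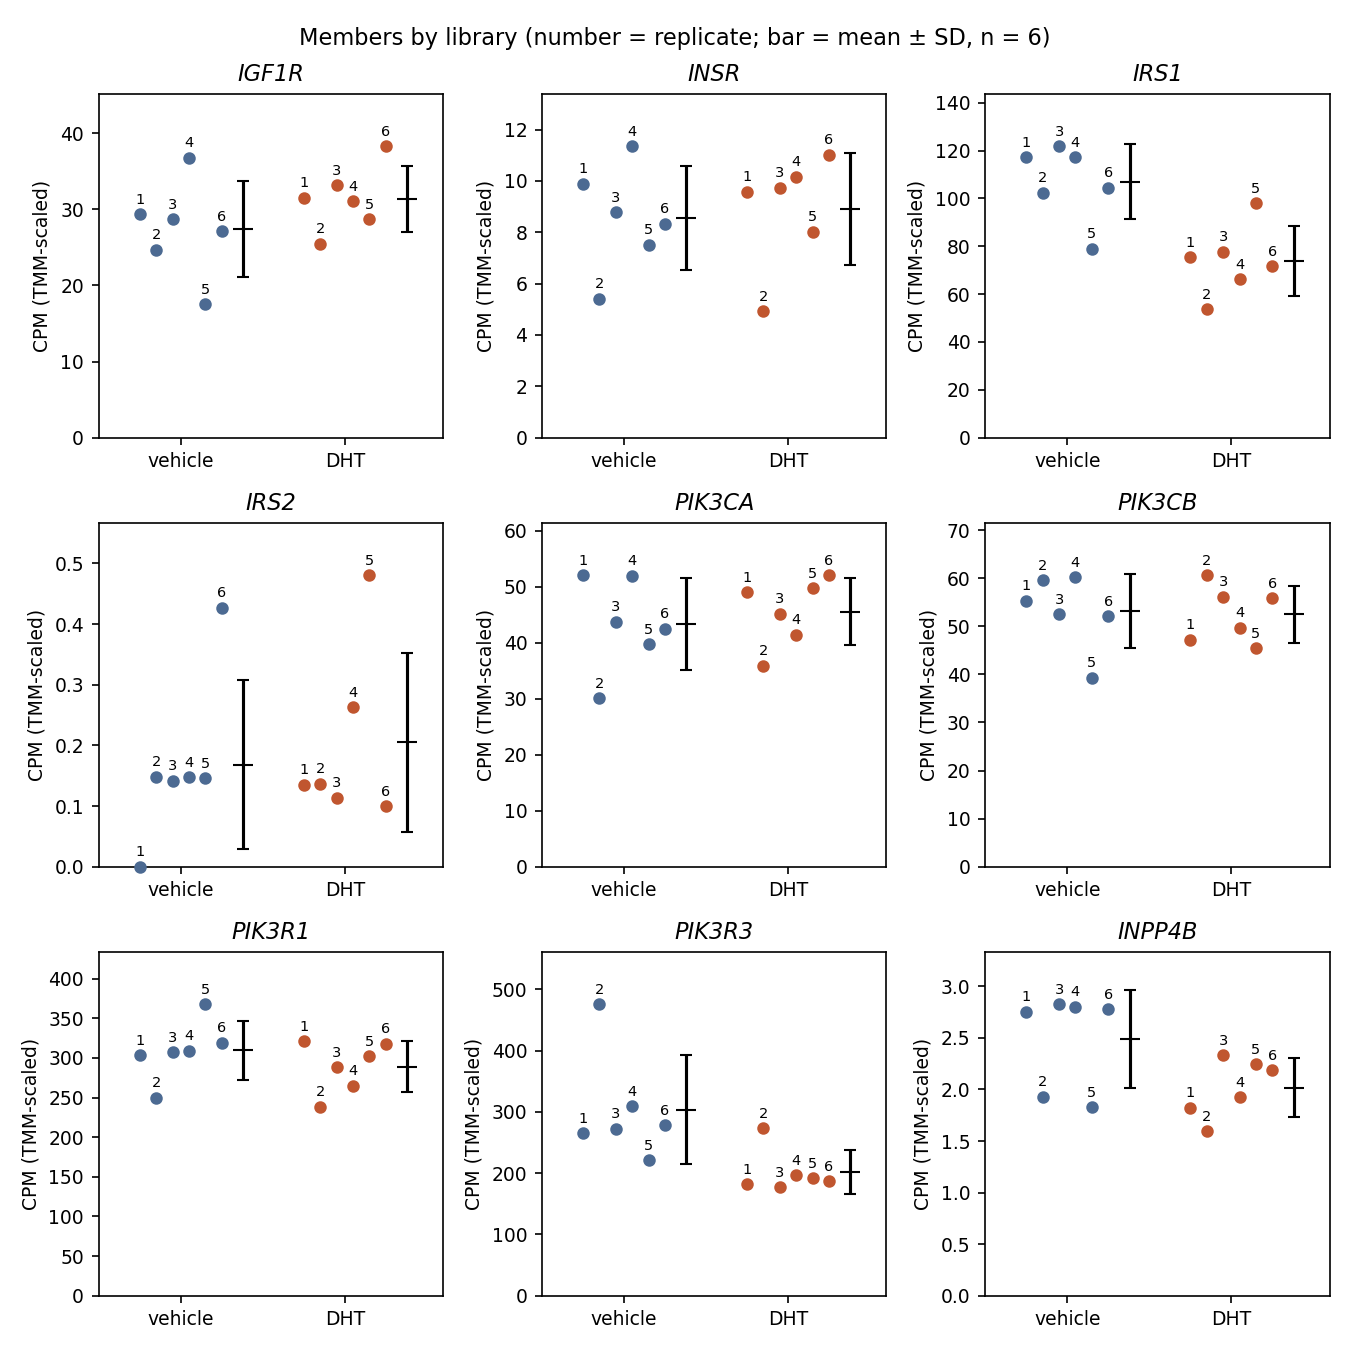
Level of each of the 9 genes in CPM (vertical axes start at 0) in every library, vehicle in blue and DHT in orange, numbered by replicate, with the mean and SD of 6 libraries. IRS1 and PIK3R3 lie mostly lower with DHT, with an overlap at replicate 5 for IRS1 and at replicate 2 for PIK3R3, and IRS2 lies under 0.5 CPM throughout.

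Compared per kilobase of exon, the members spanned a wide range in vehicle. PIK3R3 was highest at 41.1 ± 12.04 CPM per kb (SD, n = 6), followed by PIK3R1 at 28.8 ± 3.52, and the libraries of the pair overlapped (29.9 to 64.4 and 23.3 to 34.3). IRS1 came next at 10.8 ± 1.58 CPM per kb (7.94 to 12.3), above every library of PIK3CB, which stood at 6.79 ± 0.972 (5.01 to 7.68). PIK3CA at 2.52 ± 0.480 and IGF1R at 1.96 ± 0.452 CPM per kb overlapped each other (1.75 to 3.03 and 1.26 to 2.64) and lay below PIK3CB. INSR, at 0.789 ± 0.188 CPM per kb, lay below every IGF1R library (INSR 0.4997 to 1.05). INPP4B at 0.176 ± 0.0335 and IRS2 at 0.0207 ± 0.0171 CPM per kb closed the order without overlap. With DHT the order of the means was the same, but PIK3R3 and PIK3R1 now stood at 27.2 ± 4.88 and 26.9 ± 3.00 CPM per kb, and IRS1 (5.39 to 9.84) overlapped PIK3CB (5.80 to 7.74). The length is the summed exon length in the count table. The order of PIK3R3 and PIK3R1 depends on it: before division their vehicle means were 304 and 309 CPM.

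**Figure D2:**
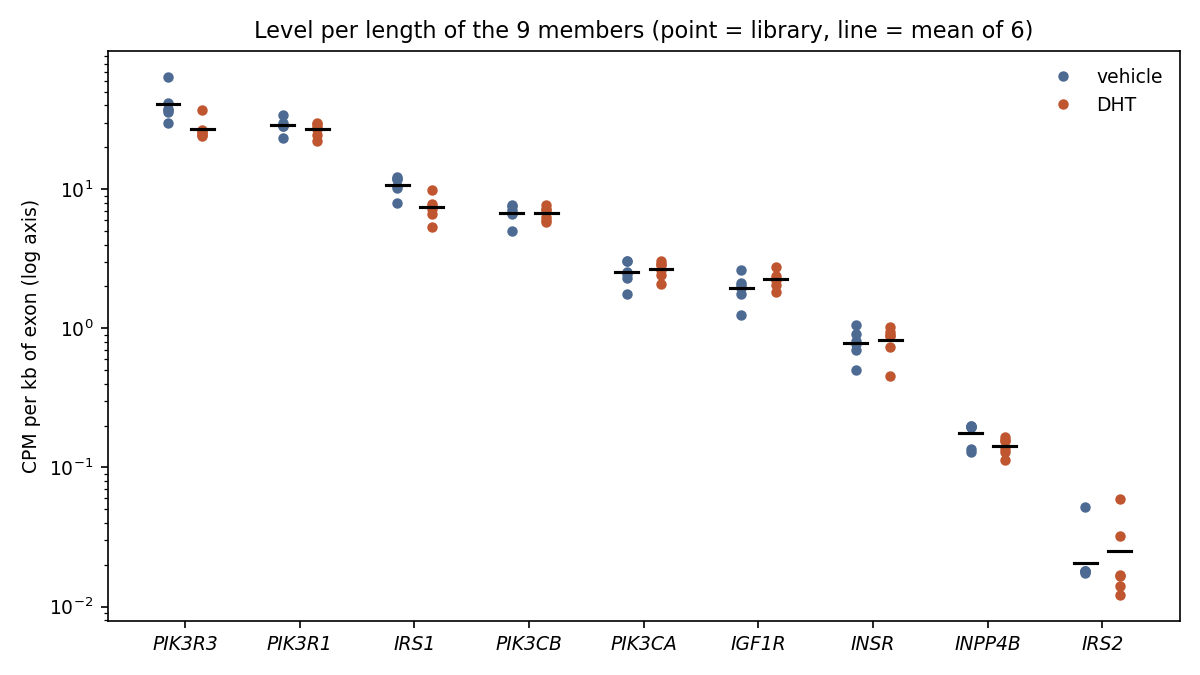
Level per length of the 9 genes in CPM per kb of exon, on a log axis, ordered by the vehicle mean; each point is a library, each line the mean of 6, and the vehicle library with 0 IRS2 counts is not drawn. PIK3R3 and PIK3R1 are highest, at 41.1 and 28.8 CPM per kb in vehicle, and IRS2 lowest, at 0.0207.

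The receptors showed no change that passed. IGF1R, the receptor for IGF1 and IGF2 (chromosome 15, 98648539 to 98964530 on GRCh38, as are all positions from the count table), ran from 17.5 through a median of 27.9 to 36.8 CPM in vehicle and from 25.5 through 31.3 to 38.3 CPM with DHT. The groups overlapped, and IGF1R was higher with DHT for 5 of 6 replicate numbers (log2 fold change 0.20, SE 0.16, edgeR adjusted p = 0.776, unadjusted 95% interval -0.15 to 0.54). Its largest difference was at replicate 5, from 17.5 to 28.7 CPM. INSR, the insulin receptor (chromosome 19, 7112255 to 7294414), ran from 5.41 through 8.55 to 11.4 CPM in vehicle and from 4.92 through 9.66 to 11.02 CPM with DHT. It was higher for 3 replicate numbers and lower for 3 (log2 fold change 0.05, SE 0.21, edgeR adjusted p = 0.973, interval -0.40 to 0.51), and both replicate 2 libraries were the lowest of their groups.

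The adaptors stood far apart in level. IRS1, the more abundant of these 2 adaptors (chromosome 2, 226731317 to 226799759), ran from 79.0 through 111 to 122 CPM in vehicle and from 53.7 through 73.5 to 97.9 CPM with DHT. Of the 6 DHT libraries 5 lay below every vehicle library, and DHT replicate 5, at 97.9 CPM, lay above vehicle replicate 5, at 79.0 CPM, the lowest vehicle library. Replicate 5 was therefore the exception among 5 of 6 replicate numbers that were lower with DHT, where the other differences ran from -0.93 (replicate 2) to -0.54 (replicate 6) on the log2 scale. The group means were 107 ± 15.8 and 73.8 ± 14.6 CPM (SD, n = 6 per group), a log2 fold change of -0.54 (SE 0.15, 95% interval -0.85 to -0.22) that missed the threshold (edgeR adjusted p = 0.0740). By edgeR it passed without vehicle replicate 5 (log2 fold change -0.61, adjusted p = 0.0262) or DHT replicate 5 (-0.63, adjusted p = 0.0329). Those are the libraries that made the overlap, so leaving either out widens the difference. With any other single library left out IRS1 did not pass (edgeR adjusted p = 0.0759 to 0.179). DESeq2 gave -0.53 with an adjusted p of 0.0225, and the authors' deposited table gives -0.58 with an adjusted p of 0.0108.

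IRS2, the second widely used IRS adaptor (chromosome 13, 109752695 to 109786583), was almost absent. It had 0 to 6 counts in a library, 10 over the vehicle and 17 over the DHT libraries, or 0.131 and 0.193 CPM pooled. The scaled ratio was 1.47 with an exact 95% counting interval of 0.635 to 3.59, so no difference was detectable at this depth. IRS1 had 8221 counts in vehicle and 6359 with DHT.

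The windows upstream of 4 start sites are printed because IRS1 and IRS2 are paralogs with opposite levels and PIK3R3 and PIK3R1 are paralogs of which the first was lower with DHT. Each is the 250 bases before the RefSeq start (build GRCh38.p14) nearest to the start in the count table (61 bases away for IRS1, 0 for the others), read 5′ to 3′ on the gene's strand. Capitals mark matches to the AP-2 motif GCCNNNGGC, a palindrome and so the same on both strands.
IRS1, chr2:226799821-226800070, minus strand: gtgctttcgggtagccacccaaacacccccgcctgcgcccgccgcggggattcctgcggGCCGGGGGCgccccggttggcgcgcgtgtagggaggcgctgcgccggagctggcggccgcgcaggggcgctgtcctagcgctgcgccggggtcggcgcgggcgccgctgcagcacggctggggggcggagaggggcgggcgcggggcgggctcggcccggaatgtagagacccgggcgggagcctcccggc
IRS2, chr13:109786584-109786833, minus strand: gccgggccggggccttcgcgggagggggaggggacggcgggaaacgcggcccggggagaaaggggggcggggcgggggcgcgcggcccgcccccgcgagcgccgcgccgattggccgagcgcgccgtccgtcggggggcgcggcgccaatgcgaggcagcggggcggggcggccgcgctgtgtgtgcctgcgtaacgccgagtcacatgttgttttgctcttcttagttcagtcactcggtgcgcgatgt
PIK3R3, chr1:46133037-46133286, minus strand: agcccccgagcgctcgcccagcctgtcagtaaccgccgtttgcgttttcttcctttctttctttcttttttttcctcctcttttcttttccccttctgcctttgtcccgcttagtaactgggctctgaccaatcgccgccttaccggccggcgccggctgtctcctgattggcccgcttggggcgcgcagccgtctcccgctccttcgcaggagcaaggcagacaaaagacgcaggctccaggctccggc
PIK3R1, chr5:68215506-68215755, plus strand: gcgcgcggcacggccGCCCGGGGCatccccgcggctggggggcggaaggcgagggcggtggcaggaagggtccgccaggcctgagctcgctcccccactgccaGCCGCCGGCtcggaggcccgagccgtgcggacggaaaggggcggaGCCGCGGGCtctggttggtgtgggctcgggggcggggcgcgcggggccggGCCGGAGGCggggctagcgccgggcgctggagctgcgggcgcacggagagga

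The near-silent IRS2 and the well-transcribed IRS1 both had windows rich in CpG, with 42 and 39 CpG in 250 bases against a median of 11 over all 35116 RefSeq windows. The PIK3R3 window had a GC content of 60.4%, near the median of 58% over all windows, and that of PIK3R1 had 81.6%. Of the 9 members, all matched by symbol in the RefSeq table, 5 held the AP-2 motif (IGF1R, INPP4B, INSR, IRS1 and PIK3R1, the last at 4 places; the INPP4B window is the nearest of 6 in the table and its RefSeq start lies 1131 bases from the start in the count table), as did 19.8% of all windows. The fixed letters of that motif are all G or C. The 5 windows holding it had a GC content of 70.8% to 81.6%, and the other members' windows 57.6% to 76.4%. Its share among windows of like GC content was not computed. The palindromic androgen response element (AGAACA, 3 free bases, TGTTCT) was in 0 of the 9 and in 1 of all 35116 windows. The FOXO motif GTAAACA, searched on both strands, was in the window of PIK3CA and in 2.98% of all windows, whose RefSeq start lies 243 bases from the start in the count table. The motifs do not overlap in these windows, and these matches are letters in a window, not measured sites.

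The catalytic subunits were at nearly the same level in both groups. PIK3CA, the alpha catalytic subunit (chromosome 3, 179148114 to 179240093), ran from 30.1 through 43.2 to 52.1 CPM in vehicle and from 35.9 through 47.1 to 52.1 CPM with DHT. Its log2 fold change was 0.07 (SE 0.14, edgeR adjusted p = 0.937, interval -0.24 to 0.38), and both replicate 2 libraries were again the lowest of their groups. The tail of PIK3CA shares 3403 bases (19.8% of its exon length) with KCNMB3 on the opposite strand, which had 205 counts against 7274 for PIK3CA. PIK3CB, the beta catalytic subunit (chromosome 3, 138652698 to 138834928), ran from 39.3 through 54.0 to 60.3 CPM in vehicle and from 45.4 through 52.8 to 60.7 CPM with DHT (log2 fold change -0.02, SE 0.12, edgeR adjusted p = 0.985, interval -0.28 to 0.24). The sign for PIK3CB turned to 0.03 with library totals as the only scaling.

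Neither regulatory subunit passed the main test, and PIK3R3 had the larger difference between the groups. Whether PIK3R3 and PIK3R1 differed in their response to DHT was not tested. PIK3R1, which encodes the p85 alpha family (chromosome 5, 68215756 to 68301821), ran from 249.9 through 308 to 368 CPM in vehicle and from 238 through 295 to 321 CPM with DHT (log2 fold change -0.10, SE 0.12, edgeR adjusted p = 0.881, interval -0.36 to 0.16). For PIK3R1 too, both replicate 2 libraries were the lowest of their groups. PIK3R3, which encodes the shorter p55 gamma subunit (chromosome 1, 46040140 to 46133036), ran from 221 through 275 to 476 CPM in vehicle and from 177 through 189.5 to 274 CPM with DHT. It was lower with DHT for 6 of 6 replicate numbers, by 0.20 (replicate 5) to 0.80 (replicate 2) on the log2 scale. The groups overlapped through DHT replicate 2, at 274 CPM, which lay far above the other DHT libraries and among the vehicle libraries, as vehicle replicate 2, at 476 CPM, lay far above the other vehicle libraries. Group means were 304 ± 89.1 and 201 ± 36.1 CPM (SD, n = 6 per group), a log2 fold change of -0.59 (SE 0.18, 95% interval -0.98 to -0.21) that did not pass (edgeR adjusted p = 0.116).

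Without both replicate 2 libraries PIK3R3 passed, with a log2 fold change of -0.53 and an edgeR adjusted p of 0.00587. It then stood at 269 ± 31.6 CPM in vehicle and 187 ± 7.81 CPM with DHT (SD, n = 5 per group), and every DHT library (177 to 196.5 CPM) lay below every vehicle library (221 to 309 CPM), as was so for 3.00% of all genes tested. It also passed without DHT replicate 2 alone (-0.70, adjusted p = 0.0398), and DESeq2 gave -0.59 with an adjusted p of 0.0387. Leaving out vehicle replicate 2 alone gave -0.42 with an edgeR adjusted p of 0.109. With any other single library left out PIK3R3 did not pass (edgeR adjusted p up to 0.267). IRS1 did not pass by edgeR without both replicate 2 libraries (-0.47, adjusted p = 0.0661). The authors' deposited table gives PIK3R3 a log2 fold change of -0.61 with an adjusted p of 0.00252. The readthrough gene P3R3URF-PIK3R3 shares 1292 bases (17.5%) of the exon length of PIK3R3 on the same strand and had 0 counts in every library. The counting options are not known, so how reads on the shared bases were assigned cannot be told.

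**Figure D3:**
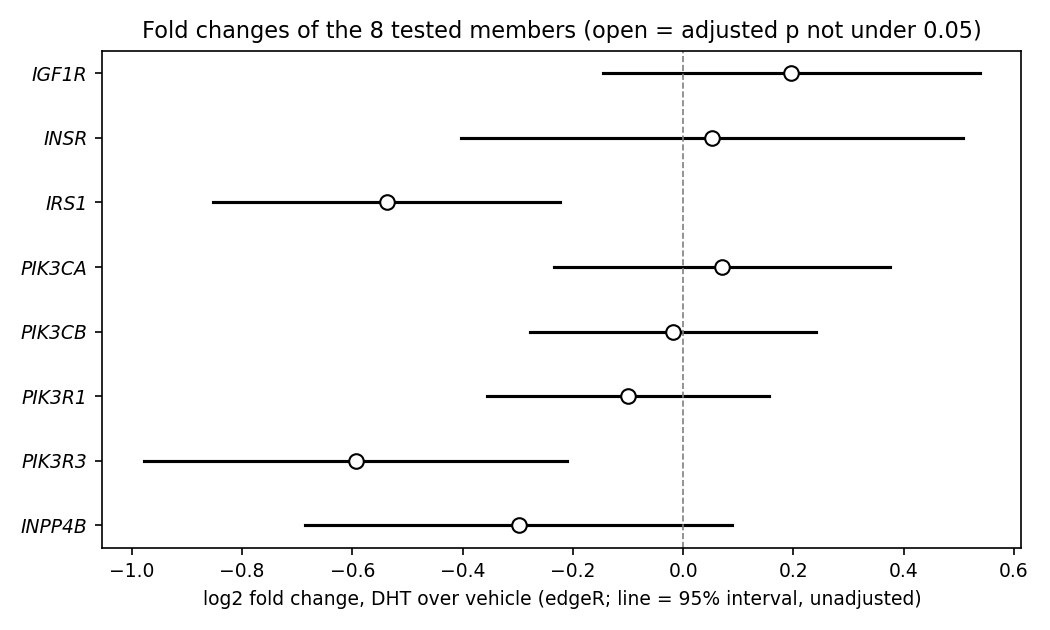
Log2 fold change (DHT over vehicle) of the 8 tested genes by edgeR with unadjusted 95% intervals. The intervals of IRS1 (-0.85 to -0.22) and PIK3R3 (-0.98 to -0.21) do not reach 0, but no adjusted p is under 0.05.

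**Figure D4:**
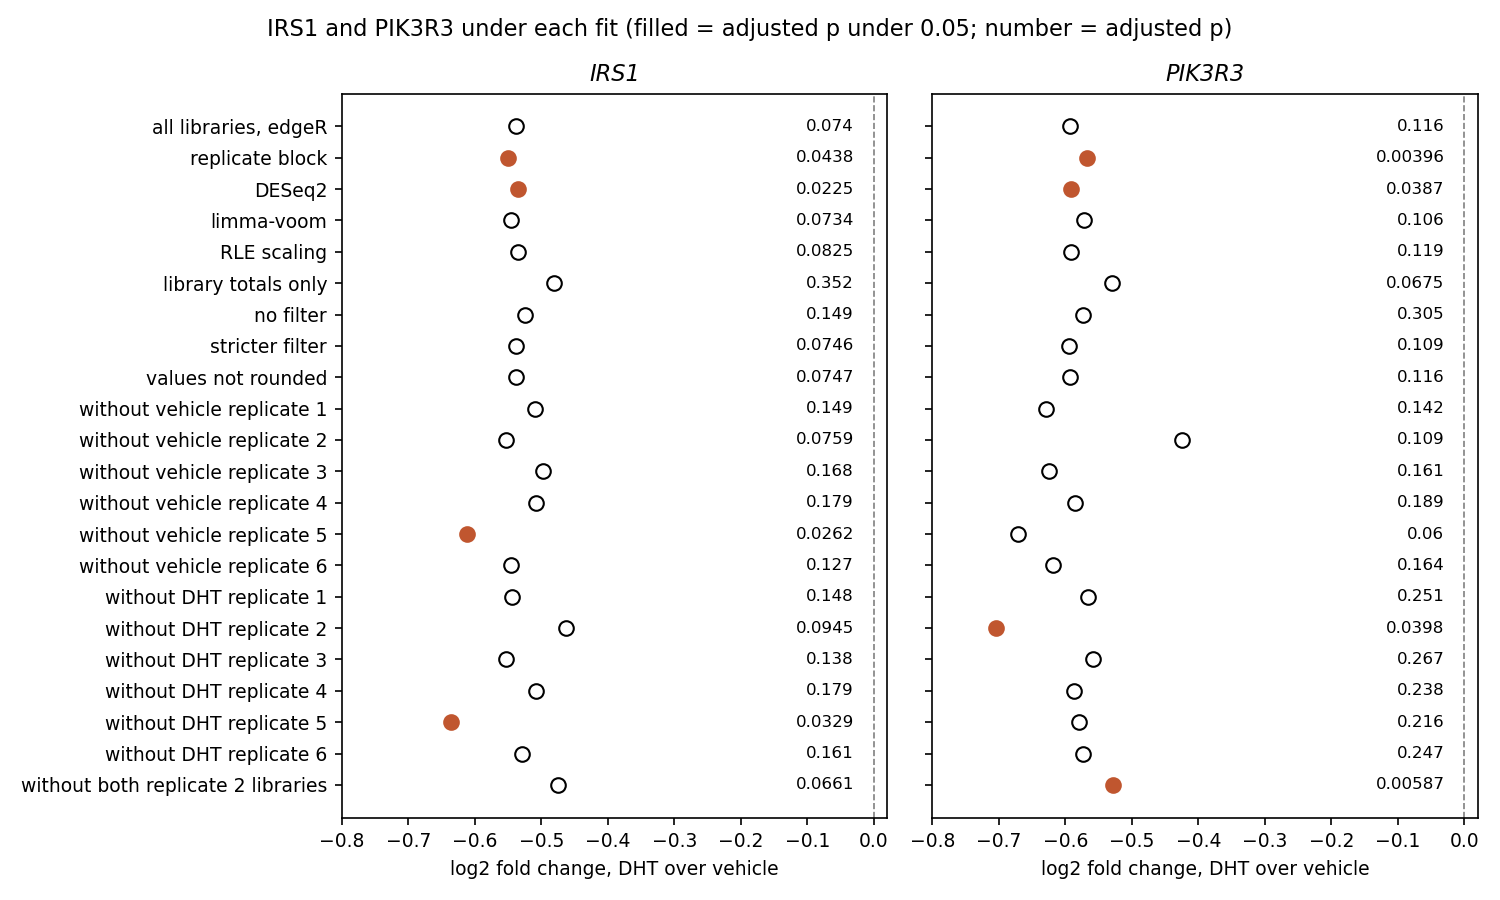
Log2 fold change of IRS1 and PIK3R3 under each of 22 fits, with the adjusted p at the right of each panel; filled points have an adjusted p under 0.05. Both are negative in every fit, and each passed in 4 of the 21 alternatives.

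As a share of the summed level per length of the 3 class IA regulatory genes, PIK3R3 made up 45.8% to 72.5% in vehicle (median 55.6%) and 44.7% to 61.7% with DHT (median 47.1%). PIK3R1 made up most of the rest, at a median of 43.5% in vehicle and 52.0% with DHT, and PIK3R2, the p85 beta gene, at most 1.56% in any library. Per length, PIK3R3 was the larger part in 5 of 6 vehicle libraries and in 2 of 6 DHT libraries, replicates 2 and 4. This depends on the exon lengths used, 7.397 kb for PIK3R3 and 10.731 kb for PIK3R1. Before division by length, the means of PIK3R3 and PIK3R1 were 304 and 309 CPM in vehicle, and 201 and 289 CPM with DHT. The ratio of these 3 regulatory genes to the catalytic genes PIK3CA, PIK3CB and PIK3CD, per length, ran from 6.33 to 9.32 in vehicle and from 5.17 to 6.12 with DHT, without overlap. This ratio was formed after the values had been seen and is given with no test. The ratio of IRS1 to IGF1R per length, formed in the same way, was 4.47 to 6.32 in vehicle and 2.62 to 4.78 with DHT, overlapping through DHT replicate 5.

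**Figure D5:**
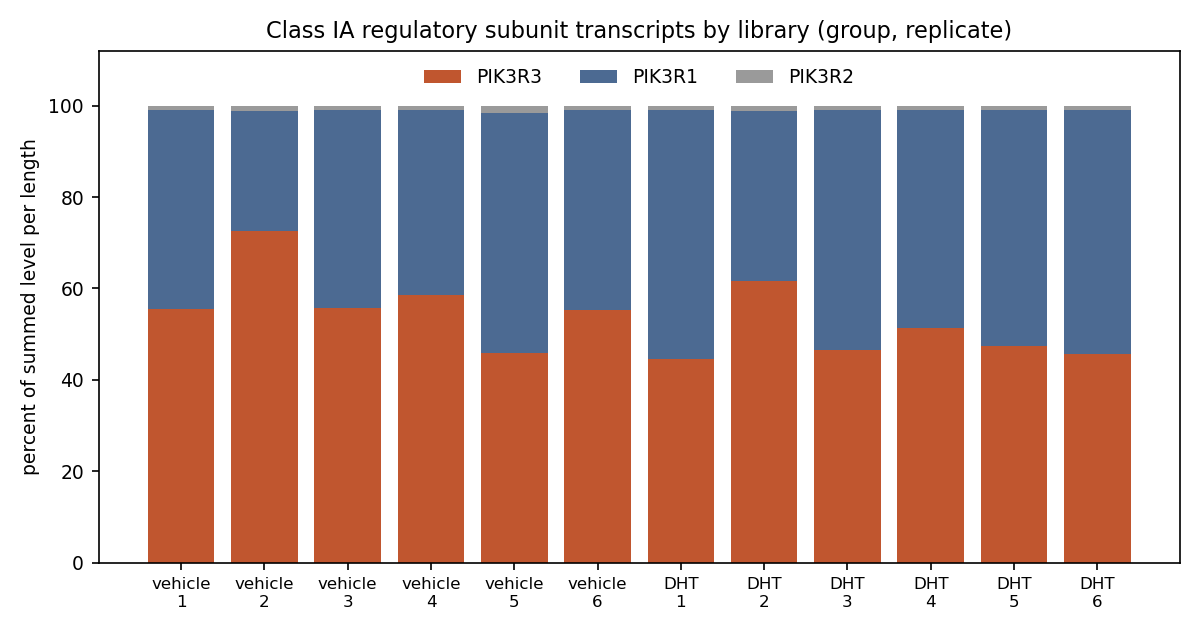
Percent of the summed level per length of PIK3R3, PIK3R1 and PIK3R2 in each library (bars stacked to 100%). PIK3R3 is 72.5% and 61.7% in the vehicle and DHT libraries of replicate 2, and 44.7% to 58.6% in the others.

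INPP4B, the phosphatase of PI(3,4)P2 (chromosome 4, 142023160 to 142847432), was expressed at a low level. It ran from 1.83 through 2.77 to 2.83 CPM in vehicle and from 1.59 through 2.06 to 2.33 CPM with DHT, from 188 and 175 counts in all. The vehicle libraries fell into 4 near 2.8 CPM and 2, replicates 2 and 5, under 2 CPM. INPP4B was lower with DHT for 5 of 6 replicate numbers, replicate 5 being the exception as it was for IRS1 (log2 fold change -0.30, SE 0.18, edgeR adjusted p = 0.617, interval -0.69 to 0.09). Vehicle replicate 5, the library with the highest mitochondrial share, was also the lowest vehicle library for IGF1R, PIK3CB, IRS1 and PIK3R3 and the highest for PIK3R1, and the part of that share in these values was not tested.

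Other genes of the pathway were read in lists, which were chosen with earlier results of these data known. Over all genes tested edgeR called 2.84% and DESeq2 4.85%, and limma-voom called 458 of 16355. At an unadjusted edgeR p under 0.05, 884 of the 16355 genes were lower and 1077 higher. Of 12 other PI3K subunits and regulators 8 were tested and 0 passed by edgeR, DESeq2 or limma-voom (3 lower and 0 higher at an unadjusted edgeR p under 0.05; median log2 fold change -0.11). PIK3CG, the gamma catalytic subunit of leukocytes, had 0 counts in all libraries, which allows up to 0.0182 CPM over the 12 libraries, and PIK3CD, the delta subunit, stood at 0.767 ± 0.259 CPM in vehicle (SD, n = 6). With DHT the mean of PIK3CD was 0.819 ± 0.318 CPM (SD, n = 6), and its highest libraries reached 1.11 CPM in vehicle and 1.44 CPM with DHT. Alpha and beta were thus the class I catalytic subunits with a group mean above 1 CPM. Of 14 other tested phosphoinositide phosphatases INPP5J, a 5-phosphatase acting on PIP3, fell, its mean going from 81.2 ± 10.7 to 51.1 ± 4.42 CPM (SE 0.11 around a log2 fold change of -0.67, edgeR adjusted p = 0.00394), with every DHT library below every vehicle library, and 13 did not pass by edgeR (median -0.05). DESeq2 called 2 of these phosphatases and limma-voom 1.

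Upstream of the receptors, IGF2 and INS had 0 counts and IGF1 had 1 count in all libraries. Of 17 ligands, binding proteins and related genes 6 were tested and 0 passed by edgeR, DESeq2 or limma-voom, with 0 at an unadjusted edgeR p under 0.05 as well (median log2 fold change -0.05). IGFBP5, a secreted IGF-binding protein, was the most abundant of them at 2534 ± 853 CPM in vehicle and 2586 ± 641 CPM with DHT (SD, n = 6 per group), and is named after its value was seen. The clearance receptor IGF2R had a log2 fold change of -0.09 (edgeR adjusted p = 0.924). Among 29 tested adaptors and receptor-proximal regulators SOCS2, a cytokine-signalling suppressor also known to bind IGF1R, rose, its mean going from 53.6 ± 6.997 to 81.4 ± 8.98 CPM (SE 0.11 around a log2 fold change of 0.61, edgeR adjusted p = 0.00986), 0 fell and 28 did not pass by edgeR (2 higher and 6 lower at an unadjusted p under 0.05; median -0.08). DESeq2 called 3 genes of this list and limma-voom 1.

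Downstream, 2 of 35 tested genes of AKT, mTOR and their regulators rose, 1 fell and 32 did not pass by edgeR (median log2 fold change -0.01). DESeq2 called 3 genes of this list and limma-voom 2. SGK1, a kinase related to AKT and activated by PI3K, rose, its mean going from 0.334 ± 0.159 to 0.937 ± 0.153 CPM (SE 0.30 around a log2 fold change of 1.5045, edgeR adjusted p = 0.0124), from 25 counts in vehicle and 85 with DHT. It is named after its values were seen, its level being under 1 CPM. TRIB1, a pseudokinase gene, rose from 23.0 ± 2.93 to 31.4 ± 2.00 CPM (0.45, edgeR adjusted p = 0.0415) and its relative TRIB2 fell from 71.6 ± 14.0 to 45.7 ± 8.48 CPM (-0.65, edgeR adjusted p = 0.0463). Leaving out 1 library kept the TRIB1 call only for vehicle replicates 2 and 5 and DHT replicate 2, and the TRIB2 call only for vehicle replicates 2 and 5 (edgeR adjusted p up to 0.116 and 0.118 over all 12 such fits). The TRIB1 call was also lost with library totals only (edgeR adjusted p = 0.0882) and with no filter (0.154). The TRIB2 call was lost by limma-voom (adjusted p = 0.0558) and, by edgeR, with RLE scaling (0.0509), library totals only (0.257) and no filter (0.0609). AKT1, at 655 ± 193 and 626 ± 97.7 CPM, and MTOR, at 122 ± 18.7 and 122 ± 13.3 CPM, did not pass (edgeR adjusted p = 0.958 and 0.994), and the sign of the AKT1 difference turned under another scaling.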

How the data were processed

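MDA-MB-453 libraries (6 vehicle, 6 DHT) were compared; the groups and replicate numbers are those of the labels. The authors' deposited count table holds estimated counts of reads in genes. The submitters' processing notes name STAR, featureCounts and the build GRCh38; of versions, options, strand setting and annotation release, nothing is given in sources used here. Between 39.6% and 46.7% of the values above 0 in a library were not whole (tolerance 0.005), so values were rounded to whole numbers. The exon length per gene is a column of the same deposited table. 1 record broken over 3 lines was left out, and 0 columns of per-library values were unmapped. The authors' deposited table of their own comparison gives log2 fold changes and p-values with adjusted p, per the file headers; no source used here gives its model.

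Low counts were removed by filterByExpr. Totals were scaled by TMM, and the test was that of edgeR 4.0.16 (glmQLFit and glmQLFTest, R 4.3.3), with Benjamini-Hochberg adjustment at 0.05. CPM values use TMM-scaled totals. Alternatives were DESeq2 1.42.0, limma-voom (limma 3.58.1), a replicate block, other scalings and filters, unrounded values and libraries left out. The test was tried on simulated data of 16125 genes. The members and gene lists were chosen with earlier results of these data known. Named were all members, per list up to 2 raised and 2 lowered genes with an adjusted p under 0.05 and at least 1 CPM, AKT1, MTOR and IGF2R, 3 androgen-raised controls and the line markers ESR1 and ERBB2. Some genes of the rule are not reported here. Genes most like a member were to be named for members that passed, and 0 passed. Intervals on counts cover counting error only.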

Additional observations from a re-analysis of the deposited data

Results flagged for a closer look

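In 3 of 18 groups of 6 libraries (9 genes, each group tested apart) 1 library lay far from the rest, where chance gives about 1 in 20. PIK3R3 in vehicle replicate 2 stood at 476 CPM, with the next library at 309 CPM, a gap of 0.656 of the group's range against a limit of 0.625. PIK3R3 in DHT replicate 2 stood at 274 CPM, with the next at 196.5 CPM, a gap of 0.797 of the range. IRS2 in vehicle replicate 6, the shallowest library, stood at 0.427 CPM, with the next at 0.148 CPM and a gap of 0.653 of the range, where 1 count in that library is worth 0.214 CPM. That library held 2 IRS2 counts, the same as vehicle replicates 2, 3, 4 and 5, so it stood apart in CPM but not in counts.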

How the results depend on the processing

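Over all genes the main fit called 464 (320 raised, 144 lowered). The count was 793 by DESeq2 (510 raised, 283 lowered), 920 without both replicate 2 libraries (608 and 312) and 278 to 619 with 1 library left out (189 to 434 raised, 86 to 199 lowered); 93 genes were lowered with library totals only and 90 with no filter. Members called were 2 by DESeq2, 1 without both replicate 2 libraries and 0 to 1 with 1 library left out. IRS1 was at -0.53 by DESeq2 and -0.635 to -0.462 with 1 library left out. PIK3R3 was at -0.59 by DESeq2, -0.53 without both replicate 2 libraries and -0.70 to -0.42 with 1 library left out. Signs turned for values near 0: PIK3CB 0.027 with library totals only, 0.0027 with no filter and -0.0926 to 0.0222 with 1 library left out; AKT1 0.0011 with library totals only, 0.0229 without both replicate 2 libraries and -0.156 to 0.109 with 1 left out; IGF2R 0.0398 without both replicate 2 libraries; and, with 1 left out, INSR -0.0571 to 0.178, PIK3CA -0.0199 to 0.130 and MTOR -0.0652 to 0.0559. The cause was not tested.

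With the replicate number as a block, 1286 genes were called (764 raised, 522 lowered) and 2 members, IRS1 at -0.55 (edgeR adjusted p = 0.0438) and PIK3R3 at -0.57 (edgeR adjusted p = 0.00396). Same-numbered libraries correlated in their deviations from the group means at 0.27 to 0.886 for 5 numbers and at -0.262 for replicate 5, and 3 of 6 vehicle libraries correlated best with the DHT library of their own number. The labels do not say whether a number marks a shared passage, so the block was kept as an alternative. The alternative for genes most like a member was not run, since 0 members passed. Depth limits IRS2 and INPP4B most, with 27 and 363 counts in all.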
